A study of Homo sapiens with 6 samples.

Results

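The genes described here encode proteases that cut the extracellular matrix, the plasminogen activators with their receptor, and inhibitors of both groups. There are 33 of them, chosen by name among the 56982 gene identifiers with a value in both deposited tables. They are 8 secreted matrix metalloproteinases (MMPs), 5 membrane-type MMPs, 6 ADAMs, 4 ADAMTS proteases, the inhibitors TIMP1, TIMP2 and TIMP3, 4 genes of plasminogen activation, the cathepsins CTSB and CTSK, and HTRA1. All 33 symbols matched 1 identifier each in GENCODE 29.

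The study sequenced poly(A) RNA of U2OS, an established human osteosarcoma cell line, with 3 libraries from unedited wild-type cells (WT) and 3 from G3C2, a line in which CRISPR/Cas9 was aimed at ZFP36L1 and which the labels call deficient in it. Both were grown in DMEM with 10% serum and harvested in log phase at 65 to 75% confluency. G3C2 is 1 edited line, so an effect of the genotype and one of the clone cannot be told apart. Values were deposited as FPKM, fragments scaled by transcript length and library size, in 2 tables. Replicate 1 of each genotype is in the first, and the libraries named b and c are in the second. Nothing in the labels says that the 3 libraries of a genotype came from separate cultures beyond the statement of 3 occasions, so the p-values rest on a library-to-library spread that may be partly technical.

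Matrix proteases are made as inactive precursors. MMPs and ADAMTS enzymes use a zinc ion in the active site and are blocked by TIMPs. Pro-MMP2 is activated at the cell surface by the membrane enzyme MMP14 with TIMP2 as an adaptor. Urokinase (PLAU) binds its receptor PLAUR and turns plasminogen into plasmin, which degrades fibrin and activates several MMPs. ZFP36L1 is an RNA-binding protein that attaches to AU-rich stretches after the coding sequence and brings in deadenylases, and the urokinase mRNA is a known carrier of such stretches.

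For ZFP36L1 itself, WT replicates 1, b and c gave 165, 57.1 and 128 FPKM and G3C2 gave 238, 105 and 82.4, so its mRNA was not lower throughout in the line labelled deficient (log2 fold change 0.26, SE 0.33). Per the labels, the deficiency was checked by sequencing and western blotting. The FPKM count transcripts whether or not they carry the edit, so they do not check it. Between 22614634 and 28977502 reads per library were recovered from the second table; for the first table the depth is unknown. Replicate c stands apart in its scale: the recovered reads were 0.89 of the total by which FPKM had been divided in WT and 1.15 of it in G3C2, against 0.977 and 0.984 in replicate b. Summed FPKM was 235190 in WT replicate c and 319282 in G3C2 replicate c. Scaling the second table to its recovered reads instead, an alternative added after the values were seen, moved the all-gene median of pair c from 0.07 to -0.16 on the log2 scale and left that of pair b at -0.01. Values are as deposited unless they are said to be scaled to recovered reads, and both are given where a member's call or direction in pair c turns on it. In WT replicate c, genes of the mitochondrial genome took 13.8% of the summed FPKM, against 6.67% to 8.72% in the other libraries of its table. Of the osteoblast markers, COL1A1, SPARC, RUNX2 and SPP1 were above 1 FPKM in all 6 libraries, while ALPL, BGLAP, SP7, IBSP and COL1A2 were below 1 in all 6. All 4 blood and macrophage markers were below 1 FPKM in every library, with sums of 0.24 to 0.835, and the 3 endothelial markers summed to 0.233 to 1.98. The mesenchymal markers VIM, S100A4 and CDH2 were present in all 6. The 5 epithelial markers summed to 60.7 to 185 FPKM in WT and 69.4 to 226 in G3C2, with KRT8 and KRT18 present and KRT19 at or near 0. KRT8 was higher in G3C2 in each pair. CDH1 (1.01 FPKM or less) was lower in each pair, on 4 to 23 recovered reads per library in the second table. EPCAM was lower in pairs 1 and b and 0.08 higher in pair c. KRT18 was lower in pair b and higher in pairs 1 and c. Their part in the members' values was not tested.

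The AU-rich heptamer TATTTAT was searched on the transcript strand of the longest annotated 3′ untranslated region of each gene. It was found in 13 of the 33 members and in 12 of the 30 whose genotype difference could be tested (40%), beside 4365 of 12117 tested genes with such a region (36%). The sites printed here are shown because the core of this heptamer is the known binding sequence of the ZFP36 family, and they lie in members whose values follow. TIMP3, ADAM10, ADAMTS5 and MMP13 were above WT in all 3 replicate pairs, ADAMTS6 and ADAM12 were below it, and PLAU is the urokinase gene. Capitals mark the heptamer. The sequences are from GENCODE 29 transcripts (GRCh38).
TIMP3, chr22:32861088-32861116, plus strand: cagcttatgggTATTTATcttctattagt
TIMP3, chr22:32862917-32862945, plus strand: ttcctccatgtTATTTATgaattttatat
ADAM10, chr15:58596210-58596238, minus strand: agcttgtgacaTATTTATtgcttctgttt
ADAM10, chr15:58594782-58594810, minus strand: ttatgtttagtTATTTATgaaactctcaa
ADAMTS5, chr21:26921086-26921114, minus strand: tgtgataaaatTATTTATtcttatttaac
MMP13, chr11:102943933-102943961, minus strand: atttaaaaataTATTTATaaggaaatttt
ADAMTS6, chr5:65150715-65150743, minus strand: agaagggcattTATTTATatgagagcaaa
ADAM12, chr10:126014987-126015015, minus strand: ccaagatgcagTATTTATcaagtgaagca
PLAU, chr10:73917408-73917436, plus strand: tgtacactgaaTATTTATatttcactatt
PLAU, chr10:73917428-73917456, plus strand: ttcactattttTATTTATatttttgtaat

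PLAUR, ADAM15, MMP2, MMP14, TIMP1 and TIMP2 hold no such heptamer in that region. The printed windows of the PLAU sites overlap, while their heptamers do not. ADAM10 holds 1 more site at position 8594 of its 8740-base region. Carriers whose sites are not printed are MMP16 (7 matches, log2 fold change -0.01), ADAMTS1 (3, 0.01) and PLAT (2, 0.43). MMP15 (0.17), CTSK (-0.33) and the untested MMP1 have 1 match each. A match is a description of the letters and not a measured binding site. Members with and without the heptamer had median log2 fold changes of 0.11 (12 genes) and -0.04 (18 genes), G3C2 against WT, beside 0.05 and 0.01 over the tested genes.

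AP-1, the FOS and JUN dimer, is a textbook activator of protease promoters, so its motif TGANTCA was searched on both strands in RefSeq promoter windows of 250 bases before to 50 after a gene's start (GRCh38.p14). The table held 20 promoters of 18 members. It held none of the other members, which were therefore not searched, among them MMP1, MMP2, MMP3, MMP9, MMP13 and PLAT. The motif, which reads the same on both strands apart from its middle base, stood in 3 of the 20 (15%) and in 2707 of 35116 promoters (7.71%). The PLAUR site is shown because PLAUR had the smallest p among the members on the deposited scale, and the others because they are the remaining matches among the 20. Capitals mark the motif.
PLAUR, chr19:43670338-43670366, minus strand: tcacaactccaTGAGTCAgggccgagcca
MMP10, chr11:102780678-102780706, minus strand: aaacacatgcaTGAATCAtactgttggtg
ADAMTS12, chr5:33892057-33892085, minus strand: acactgtcagcTGAATCActcccctttta

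The motif starts 186 bases before the RefSeq start in PLAUR, 67 in MMP10 and 84 in ADAMTS12. The GENCODE 29 genes of PLAUR and ADAMTS12 begin farther upstream, so in that annotation both sites lie inside the gene. MMP10 was nearly silent in these cells in spite of its match, and ADAMTS12 had a small genotype difference, as given below.

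The most abundant members in the second table, where levels of different genes can be compared because FPKM is per length, were TIMP1, MMP2, MMP14 and TIMP2 by their means. Averaged over WT replicates b and c, they had 176, 106, 79.6 and 71.6 FPKM. The order of the last 3 did not hold in every library: TIMP2 (69.6) was above MMP14 (64.7) in WT replicate b, and in G3C2 replicate c MMP2 (39.0) was below MMP14, PLAUR and TIMP2. Next in WT came MMP15, ADAM9, PLAU, ADAM15 and PLAUR, between 20.1 and 26.4 FPKM. In G3C2, PLAUR moved from the ninth to the fifth place, with a mean of 44.9 FPKM.

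The interstitial collagenase MMP1 and the stromelysins MMP10 and MMP11 were at or near 0. In the second table MMP1 had 0 to 3 recovered reads per library, MMP10 1 to 5, and MMP11 none in any of the 4. A count of 0 reads allows up to 3, which is an MMP11 level of 0.0195 to 0.0257 FPKM and covers counting error only. In the first table MMP1 was listed at 0.0813 FPKM in WT and at 0 in G3C2, MMP10 at 0.274 and 0, and MMP11 at 0 and 0.115. These 3 genes did not reach 1 FPKM in any library and were not tested. MMP13 (collagenase 3), MMP3 (stromelysin 1), MMP9 (gelatinase B), MMP17, MMP19, CTSK and ADAMTS5 had second-table means between 1.01 and 2.47 FPKM, a low level at which log2(FPKM + 1) understates fold changes.

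The tables ordered some members differently. CTSB, the lysosomal cysteine protease cathepsin B, was first of the 33 in the first table, with 340 FPKM in WT and 324 in G3C2. It was 18th and 22nd in the second, where its 4 libraries lay between 2.66 and 10.6 FPKM. The mean of the first table over that of the second was 61.3 for CTSB and 12.7 for ADAM10, beside a median of 2.36 over the 15001 tested genes. At the other end the ratio was 0.346 for ADAMTS5 and 0.406 for HTRA1. Levels are therefore compared only within a table.

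**Figure D1:**
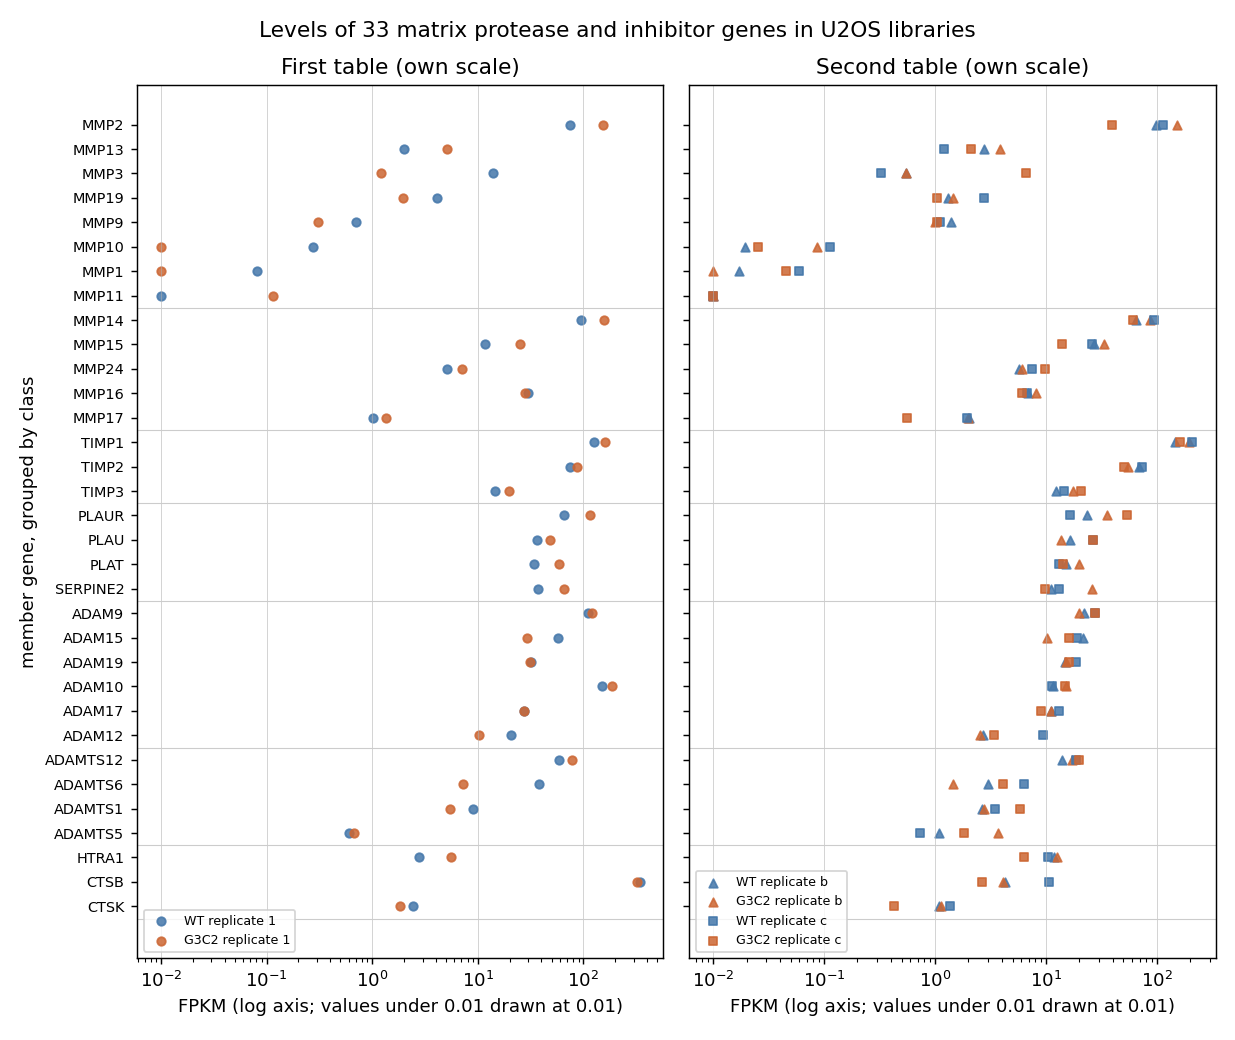
FPKM of each member gene (rows, grouped by class) on a log axis, with the first table on the left and the second on the right; blue is WT, orange G3C2, and the marker shape gives the replicate. TIMP1 lies farthest right in each library of the second table, MMP1, MMP10 and MMP11 at the left edge, and CTSB changes place between the tables.

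The comparison of G3C2 with WT asks which mRNAs differ in cells labelled as lacking ZFP36L1. The fit was limma on log2(FPKM + 1), with terms for genotype and table, over 15001 genes with at least 1 FPKM in at least 2 libraries. It called 0 of the 30 tested members higher and 0 lower at an adjusted p under 0.05, where 0.0467% of all tested genes were called (0.02% higher and 0.0267% lower). The smallest limma adjusted p among the members was 0.181, for PLAUR. At an unadjusted p under 0.05 there were 5 members, 3 higher (PLAUR, TIMP3 and ADAM10) and 2 lower (ADAM15 and ADAMTS6). That is 16.7% of the members, beside 13.6% of all tested genes, 6.19% higher and 7.43% lower. With limma-voom, run on reads recovered from the second table, 0 of 30 members were called, beside 5 of 14988 genes. An unadjusted p under 0.05 was found for 2 of 30 members, beside 1154 of 14988 genes. In bulk RNA, fewer cells with a transcript and less of it in each cell cannot be told apart.

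By direction, 8 members were higher in G3C2 in all 3 replicate pairs and 5 were lower, where 17.8% and 18.6% of all tested genes were. The median log2 fold change was 0.03 over the members and 0.01 over all tested genes. A stricter count asks for both G3C2 libraries above, or below, both WT libraries of the second table with the same direction in the first. PLAUR, TIMP3, ADAM10 and ADAMTS5 were above, and ADAM15, MMP9 and CTSB were below. These 4 and 3 of 30 stand beside 14.9% and 14.8% of all tested genes, so such counts are near the background. Scaled to recovered reads, 6 members were higher and 5 lower in all 3 pairs, beside 12.5% and 25.7% of all tested genes. On that scale 3 members had an unadjusted p under 0.05 (PLAUR, ADAM15 and ADAMTS6), beside 14.9%, and 0 passed the adjusted threshold.

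**Figure D2:**
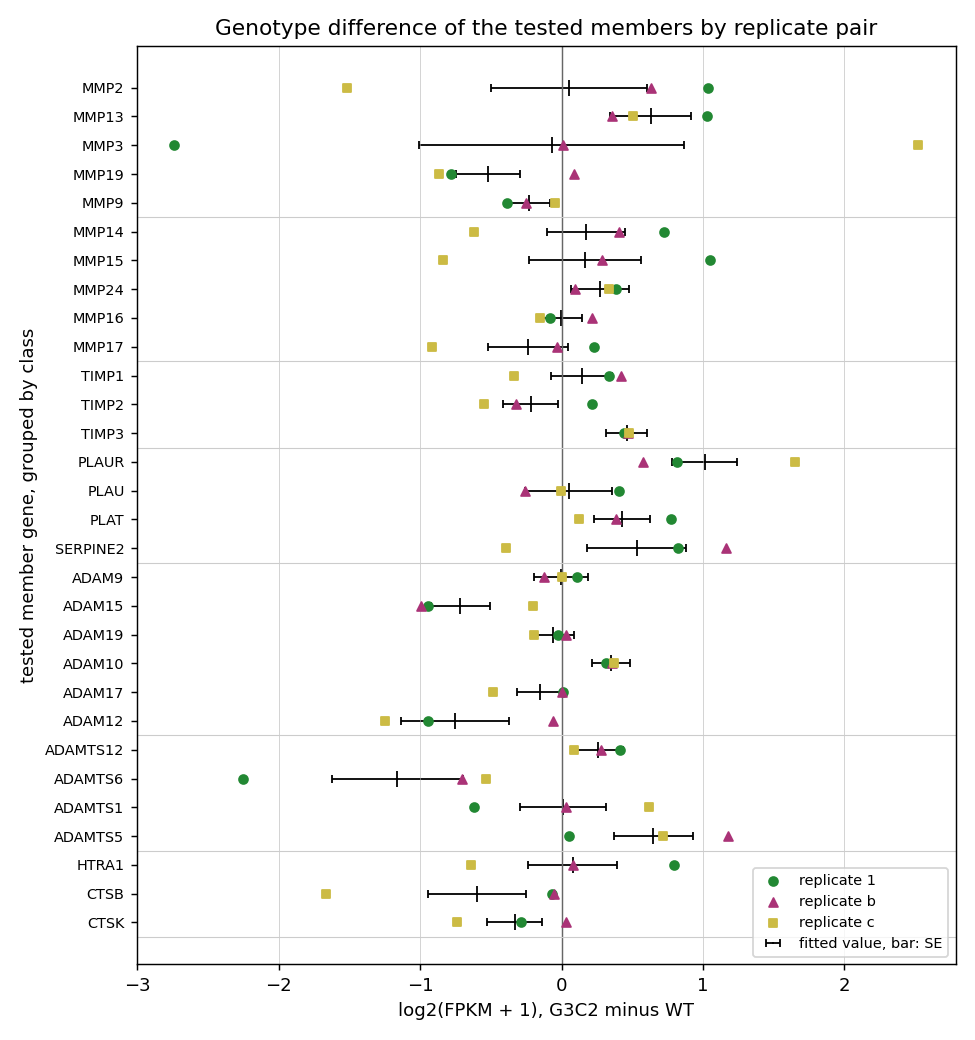
Difference in log2(FPKM + 1), G3C2 minus WT, for each of the 30 tested members (rows, grouped by class); coloured points are the replicate pairs 1, b and c, and the black tick with its bar is the fitted value with its standard error. On the deposited scale the 3 points of TIMP3 and of ADAM10 lie close together to the right of 0, while those of MMP2 and MMP3 lie on both sides.

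Genes of plasminogen activation lay higher in G3C2 in the first table in all 4 cases, with differences of 0.41 to 0.82, but 2 of 4 (PLAUR and PLAT) kept that direction in all 3 pairs, and of these PLAUR alone when the second table was scaled to recovered reads. PLAUR (ENSG00000011422, chromosome 19, 43646095 to 43670547, minus strand), the cell surface receptor of urokinase, had 65.8, 23.7 and 16.6 FPKM in the WT libraries 1, b and c. In G3C2 it had 116, 35.8 and 54.1. Each G3C2 library was above every WT library of its table. The ratios were 1.77, 1.51 and 3.27, and the fitted log2 fold change was 1.01 (SE 0.23, 3 libraries per genotype, limma adjusted p = 0.181). From replicate b to c PLAUR moved by -0.49 in WT and by 0.58 in G3C2 on the log2 scale, so the size in pair c rests on both libraries. Scaled to recovered reads, the ratio in pair c was 2.54 and the log2 fold change 0.89 (limma adjusted p = 0.147). Without replicate c the log2 fold change was 0.69 (limma adjusted p = 0.0177, 1 residual degree of freedom). The second table held 1876 to 5439 PLAUR reads per library, and no other annotated exon overlaps those of PLAUR.

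PLAU, urokinase itself, had 36.3, 16.6 and 26.7 FPKM in WT and 48.4, 13.7 and 26.7 in G3C2, with a log2 fold change of 0.05 (SE 0.31). The PLAUR to PLAU ratio of FPKM was 1.81, 1.43 and 0.621 in WT and 2.40, 2.61 and 2.03 in G3C2. The ratio was higher in G3C2 in the first table, and both G3C2 values of the second table were above both of WT. The ratio was chosen after the values were seen and was not tested. Of the exon bases of PLAU, 31.1% are shared with C10orf55, and whether the counting used strand is not given in the sources used here.

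PLAT, tissue plasminogen activator, had 33.8, 15.0 and 13.0 FPKM in WT and 58.7, 19.9 and 14.3 in G3C2. Its differences of 0.78, 0.38 and 0.13 had 1 sign as deposited, but that of pair c was -0.21 scaled to recovered reads, and G3C2 replicate c was below WT replicate b (log2 fold change 0.43, SE 0.20, limma adjusted p = 0.415). SERPINE2, protease nexin 1, an inhibitor of urokinase, plasmin and thrombin, was higher in pairs 1 and b (0.82 and 1.16) and lower in pair c (-0.39). Its level in G3C2 was 66.0, 26.0 and 9.72 FPKM, against 36.9, 11.05 and 13.1 in WT, and the fitted value was 0.53 (SE 0.35).

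Among the inhibitors of metalloproteinases, TIMP3 was higher in G3C2 in every pair. TIMP3 (ENSG00000100234, chromosome 22, 32801701 to 32863043, plus strand), which binds to the matrix and also inhibits ADAM and ADAMTS enzymes, had 14.4, 12.4 and 14.5 FPKM in WT and 19.9, 17.5 and 20.6 in G3C2. The groups did not overlap in the second table. The ratios were 1.38, 1.42 and 1.42, and the log2 fold change was 0.46 (SE 0.15, limma unadjusted p = 0.0185, adjusted p = 0.264). Scaled to recovered reads, the ratio in pair c was 1.1 and the log2 fold change 0.34 (limma unadjusted p = 0.051, adjusted p = 0.337). Over all 20 alternatives it lay between 0.34 and 0.52. Its tested protein-coding neighbours within 5 Mb, 86 genes, had a median of 0.17, and 34 of them were higher in all 3 pairs.

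TIMP1 and TIMP2 did not share that pattern. TIMP1, the soluble inhibitor and the most abundant member of the second table, had 127, 146 and 206 FPKM in WT and 161, 196 and 163 in G3C2, so the groups overlapped (log2 fold change 0.14, SE 0.22). TIMP2 had 73.9, 69.6 and 73.7 FPKM in WT and 86.0, 55.4 and 50.1 in G3C2. It was higher in the first table and lower in both pairs of the second (log2 fold change -0.22, SE 0.19).

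MMP2 and MMP14, the gelatinase and its membrane activator, were higher in G3C2 in pairs 1 and b and lower in pair c. MMP2 (ENSG00000087245, chromosome 16, 55389700 to 55506691, plus strand) had 75.1, 97.9 and 113 FPKM in WT and 155, 152 and 39.0 in G3C2. G3C2 replicate c was the lowest library of its table and G3C2 replicate b the highest. The ratios were 2.06, 1.56 and 0.344, and the fitted log2 fold change was 0.05 (SE 0.55, limma adjusted p = 0.975). MMP14 (ENSG00000157227, chromosome 14, 22836557 to 22849027, plus strand) had 94.8, 64.7 and 94.5 FPKM in WT and 157, 86.1 and 61.2 in G3C2, with a log2 fold change of 0.17 (SE 0.28). MMP15, another membrane-type MMP, went the same way, with 11.6, 27.0 and 25.9 FPKM in WT and 25.1, 33.1 and 14.0 in G3C2.

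The pairing of b and c follows the labels alone, so the change within each genotype is given too, as deposited. Replicate c departed from its recovered reads in opposite directions in WT and G3C2, which enters these changes. From replicate b to c, MMP2 moved by 0.21 in WT and -1.94 in G3C2 on the log2 scale, MMP14 by 0.54 and -0.49, MMP15 by -0.06 and -1.18, and SERPINE2 by 0.23 and -1.33. HTRA1, a secreted serine protease, moved by -0.15 and -0.87, and MMP17 by -0.05 and -0.93. In these 6 genes, picked after their values were seen, G3C2 was lower in replicate c than in b. In the same pair of WT libraries the mitochondrial share went from 8.72% to 13.8%, and its part in the pair c values was not tested. TIMP2 moved by 0.08 and -0.14. Of the 9 osteoblast genes, 5 were below 1 FPKM in every library. The summed FPKM of the 9, mostly SPARC and COL1A1, was 956, 355 and 484 in WT and 1863, 553 and 392 in G3C2. RUNX2 and SPARC were higher in G3C2 in pairs 1 and b and lower in c. COL1A1 was 4.3, 3.02 and 1.04 times WT, and SPP1 was 0.865, 1.19 and 0.114 times WT. The part of these genes in the members' pattern was not tested. The TIMP2 to MMP2 ratio of FPKM was 0.556 and 0.363 in G3C2 replicates 1 and b and 1.28 in replicate c, against 0.984, 0.711 and 0.65 in WT.

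Over the 30 tested members, 7 were higher in pairs 1 and b and lower in pair c (MMP2, MMP14, MMP15, ADAM17, TIMP1, SERPINE2 and HTRA1). That is 23.3%, beside 10.3% of all tested genes. This pattern and its reverse were not among the planned results, hold genes already described above, and were not tested. ADAM17 is counted on differences of only 0.013 and 0.006 in pairs 1 and b. Scaled to recovered reads the share was 26.7%, beside 15.2%. On that scale ADAM17 (-0.005 in pair b) leaves the set, and PLAT and ADAMTS12 enter it. The reverse pattern, lower in pairs 1 and b and higher in pair c, was found in 0 of the 30, beside 19.3% (13% scaled to recovered reads). The members' medians were 0.22, 0.09 and -0.20 for pairs 1, b and c, where those of all tested genes were -0.08, -0.01 and 0.07. From replicate b to c, 9 of the 30 members (30%) went up in WT and down in G3C2, beside 23.8% of all tested genes. This count depends on the deposited scale of replicate c and was not made on that of recovered reads. Across the 30 members the differences of pairs 1 and b had r = 0.547, those of 1 and c -0.236 and those of b and c 0.165. Over all tested genes these were 0.518, 0.244 and 0.174. The values are a description of genes that share their libraries.

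Without replicate c, in a fit with 1 residual degree of freedom, 7 of 30 members passed an adjusted p of 0.05, where 6.03% of all tested genes did, 2.99% higher and 3.05% lower. The 5 higher ones were MMP2 (log2 fold change 0.83, limma adjusted p = 0.016), MMP14 (0.56, 0.0394), PLAT (0.58, 0.0447), PLAUR (0.69, 0.0177) and SERPINE2 (0.99, 0.00843). The 2 lower ones were ADAM15 (-0.97, 0.00623) and ADAMTS6 (-1.48, 0.0431). Without replicate b, ADAMTS6 alone passed (-1.39, 0.0424), where 1.41% of all tested genes did, 0.4% higher and 1.01% lower.

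**Figure D3:**
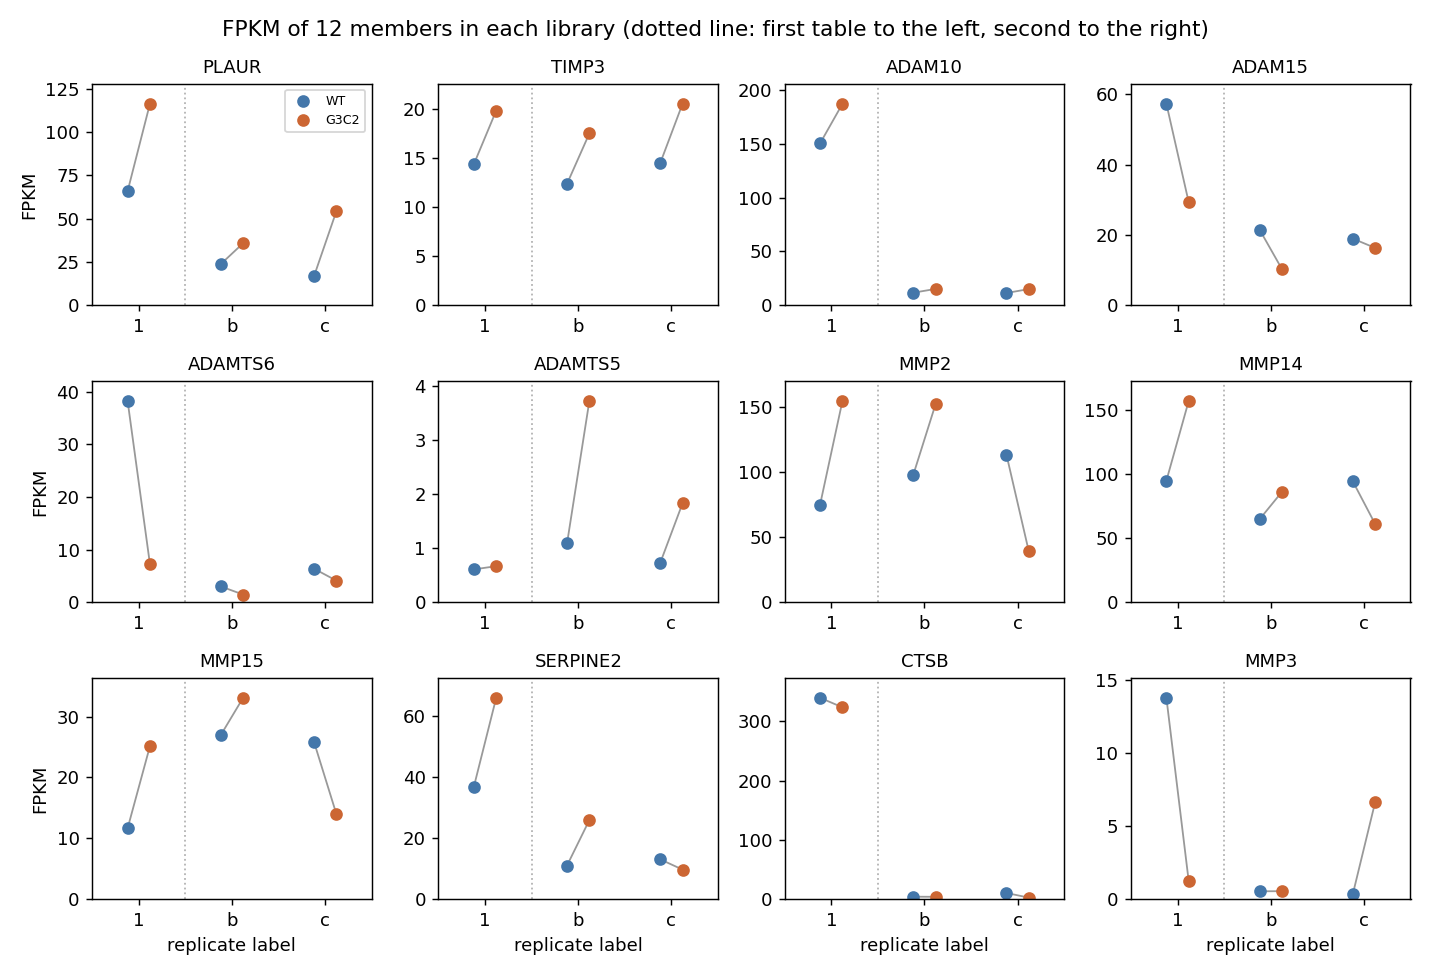
FPKM (each panel with its own axis from 0) of 12 members in WT (blue) and G3C2 (orange) for replicates 1, b and c, with a dotted line between the first table and the second. PLAUR, TIMP3 and ADAM10 are higher in G3C2 in each pair, ADAM15 and ADAMTS6 are lower, MMP2, MMP14, MMP15 and SERPINE2 are higher in 1 and b and lower in c, and MMP3 is high in WT replicate 1 and G3C2 replicate c.

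The remaining secreted MMPs were low. MMP13 had 2.01, 2.76 and 1.19 FPKM in WT and 5.13, 3.82 and 2.11 in G3C2. It was higher in each pair (1.03, 0.36 and 0.50), although G3C2 replicate c lay below WT replicate b (log2 fold change 0.63, SE 0.29, limma adjusted p = 0.41). The second table held 86 to 287 reads of it per library. MMP3, its neighbour in the MMP cluster of chromosome 11, was high in 1 library of each genotype. It had 13.8 FPKM in WT replicate 1 and 6.62 in G3C2 replicate c, and between 0.327 and 1.22 in the other 4 libraries. Its fitted value of -0.07 (SE 0.94) therefore averages differences of -2.74, 0.01 and 2.52. The 21 other tested protein-coding genes within 5 Mb of MMP3 had medians between -0.09 and 0.03 in the 3 pairs.

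MMP9 (gelatinase B) lay between 0.306 and 1.39 FPKM in all libraries and was lower in G3C2 in each pair by 0.39, 0.25 and 0.05 (fitted -0.23, SE 0.15). MMP19, a secreted MMP of basement membrane substrates, had 4.10, 1.30 and 2.74 FPKM in WT and 1.97, 1.45 and 1.05 in G3C2 (log2 fold change -0.52, SE 0.23). Exons of other genes share 18.4% of the MMP9 bases (SLC12A5-AS1) and 17.4% of the MMP19 bases (TMEM198B). The other membrane-type MMPs had log2 fold changes of 0.27 for MMP24, which was higher in all 3 pairs, -0.01 for MMP16 and -0.24 for MMP17. Standard errors of these were 0.21, 0.15 and 0.28. The MMP24 difference in pair c was 0.33 as deposited and 0.006 scaled to recovered reads. Exons of AL121753.2 and MMP24OS share 21.8% of the MMP24 bases.

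The ADAM family of membrane sheddases split. ADAM10 (ENSG00000137845, chromosome 15, 58588807 to 58749978, minus strand), which sheds Notch, cadherins and other surface proteins, had 151, 11.6 and 11.3 FPKM in WT and 187, 15.1 and 15.0 in G3C2. Groups did not overlap within a table, and the ratios were 1.24, 1.30 and 1.32. The log2 fold change was 0.35 (SE 0.13, limma unadjusted p = 0.0403, adjusted p = 0.341). Scaled to recovered reads, the ratio in pair c was 1.03 and the log2 fold change 0.23 (limma adjusted p = 0.444).

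ADAM15 (ENSG00000143537, chromosome 1, 155050566 to 155062775, plus strand), an integrin-binding ADAM, had 57.3, 21.5 and 19.0 FPKM in WT and 29.3, 10.3 and 16.3 in G3C2. It was lower in each pair, with ratios of 0.51, 0.478 and 0.86, and no overlap in the second table. The log2 fold change was -0.72 (SE 0.21, limma unadjusted p = 0.0131, adjusted p = 0.236). Scaled to recovered reads, the ratio in pair c was 0.668 and the log2 fold change -0.83 (limma unadjusted p = 0.00148, adjusted p = 0.144). On that scale ADAM15, and not PLAUR, had the smallest p among the members. The 141 tested neighbours of ADAM15 within 5 Mb had a median of 0.04.

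ADAM12, which is made by mesenchymal and tumour cells, had 20.6, 2.71 and 9.49 FPKM in WT and 10.2, 2.56 and 3.40 in G3C2. The difference was near 0 in pair b and rested on WT replicates 1 and c (log2 fold change -0.75, SE 0.38), and without WT replicate c it was -0.35 (limma adjusted p = 0.828). ADAM9, ADAM17 (the TNF sheddase) and ADAM19 had log2 fold changes of -0.01, -0.16 and -0.06, with standard errors of 0.15 to 0.19. Exons of IAH1 and AC073195.1 share 13.6% of the ADAM17 bases.

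The ADAMTS enzymes, secreted proteases of proteoglycans and procollagens, went in different directions. ADAMTS6 (ENSG00000049192, chromosome 5, 65148736 to 65481920, minus strand) had 38.3, 3.0 and 6.38 FPKM in WT and 7.25, 1.46 and 4.11 in G3C2. It was lower in each pair, with ratios of 0.189, 0.485 and 0.644, but WT replicate b lay below G3C2 replicate c. The log2 fold change was -1.16 (SE 0.46, limma unadjusted p = 0.0443, adjusted p = 0.352), and within the second table alone it was -0.62.

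ADAMTS5, the main aggrecan-cutting enzyme of cartilage in mice, had 0.607, 1.09 and 0.726 FPKM in WT and 0.667, 3.73 and 1.83 in G3C2. It was above WT in each library pair, by 3.43 and 2.52 times in replicates b and c but 1.1 times in replicate 1 (log2 fold change 0.65, SE 0.28, limma adjusted p = 0.388). The second table held 167 and 292 ADAMTS5 reads in WT and 374 and 895 in G3C2. ADAMTS1, its neighbour on chromosome 21, had differences of -0.62, 0.03 and 0.62 and a fitted value of 0.01 (SE 0.30). ADAMTS12 had 0.41, 0.28 and 0.09, or -0.26 in pair c scaled to recovered reads (fitted 0.26, SE 0.17), with 58.4, 14.0 and 18.8 FPKM in WT against 78.0, 17.2 and 20.0 in G3C2.

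The cathepsins and HTRA1 gave no common difference. CTSB had 340, 4.31 and 10.6 FPKM in WT and 324, 4.10 and 2.66 in G3C2. The differences of -0.07 and -0.06 in pairs 1 and b contrast with -1.67 in pair c, where WT was the highest and G3C2 the lowest of the second table. The log2 fold change of -0.60 (SE 0.35) was -0.20 without WT replicate c and -0.06 without replicate c. CTSK, the collagen-degrading cathepsin of osteoclasts, lay between 0.423 and 2.45 FPKM (fitted -0.33, SE 0.19). HTRA1 was higher in pairs 1 and b and lower in pair c (0.79, 0.08 and -0.64).

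Blocks of neighbouring genes that lay higher or lower in G3C2 surround some members. For each tested member the other tested protein-coding genes within 5 Mb were summarised, beside a median of 0.02 over all 12152. The neighbours of MMP9 (71 genes, median 0.35, 47 higher in all 3 pairs) and of MMP19 (130 genes, median 0.35, 75 higher) were higher, while both members had values below 0. The neighbours of ADAMTS12 (27 genes, median 0.35, 15 higher in all 3 pairs) went the way of the member. Those of ADAM12 (32 genes, median -0.25, 16 lower in all 3 pairs) did too. HTRA1, also on distal chromosome 10 and with a window that overlaps that of ADAM12, lay among genes with a median of -0.21, and SERPINE2 among genes with -0.14. The part of these blocks in the members' values was not tested. PLAUR, ADAMTS6, ADAM10, ADAM15, MMP13 and ADAMTS5 lay among genes with medians between -0.02 and 0.09.

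**Figure D4:**
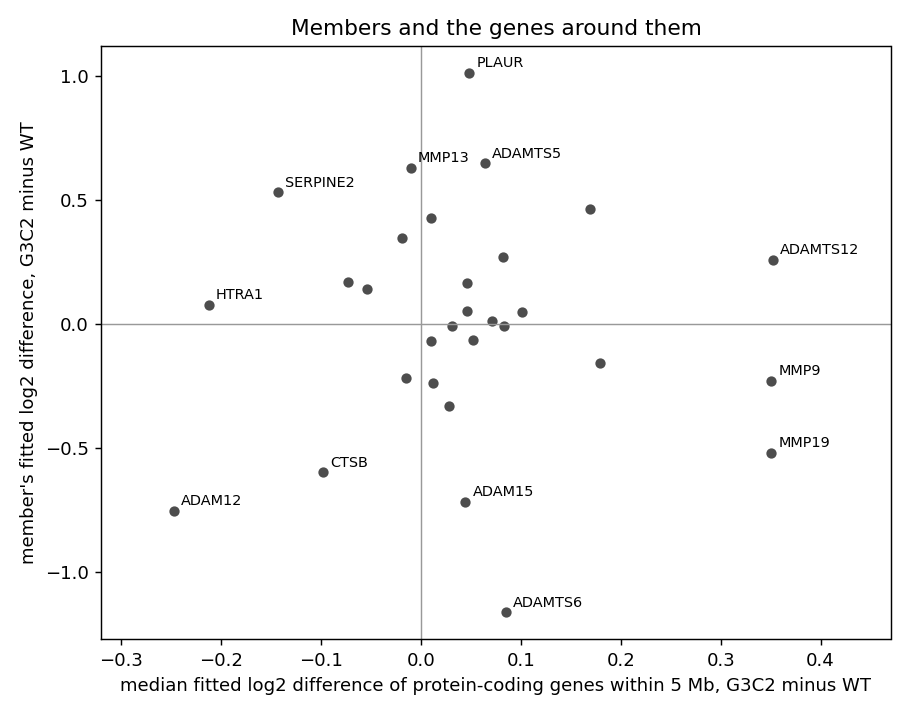
Fitted log2 difference of each tested member (y axis) against the median fitted log2 difference of the other tested protein-coding genes within 5 Mb (x axis), G3C2 minus WT. MMP9, MMP19 and ADAMTS12 lie at the right, among genes with a median of 0.35, and ADAM12 at the left, while PLAUR and ADAMTS6 have large values among neighbours near 0.

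Other genes of matrix proteolysis were taken from a list of 75 names, of which 41 were tested and 34 were too low. The 34 include plasminogen (PLG) itself, TIMP4, SERPINB2, FAP and the MMPs 7, 8, 12, 20, 21, 23B, 25, 26, 27 and 28. Of the 41, 0 passed an adjusted p of 0.05, and 10 had an unadjusted p under 0.05, 6 higher and 4 lower. This is 24.4% beside 13.6% of all tested genes, 6.19% higher and 7.43% lower. The smallest limma adjusted p was 0.135. The median log2 fold change was 0.04, with 12 genes higher and 6 lower in all 3 pairs. Over all tested genes, 17.8% were higher and 18.6% lower. These counts are on the deposited scale and were not made on that of recovered reads. Among the 12, CTSA, CTSZ, PCSK5 and RECK had pair c differences of only 0.06, 0.08, 0.16 and 0.17.

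S100A10, a subunit of the annexin A2 complex that binds plasminogen at the cell surface, had 158, 95.6 and 92.4 FPKM in WT and 351, 135 and 212 in G3C2. Its log2 fold change was 0.94 (SE 0.23, limma unadjusted p = 0.006, adjusted p = 0.192), with no overlap in the second table. A2M, the broad protease inhibitor alpha-2-macroglobulin, had 0.83 (SE 0.44) and was higher in all 3 pairs.

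ADAMTS2, a procollagen N-propeptidase, had 7.33, 4.89 and 9.90 FPKM in WT and 3.52, 1.37 and 0.864 in G3C2, and its paralog ADAMTS3 went the other way, from 16.5, 4.85 and 4.13 to 26.9, 8.14 and 8.09. Neither gene overlapped between the groups in the second table. The log2 fold changes were -1.58 (SE 0.32, limma adjusted p = 0.156) and 0.71 (SE 0.13, limma adjusted p = 0.135). ADAMTS16 (-0.78), the surface peptidase DPP4 (-0.70) and ADAM23 (-0.69), which lacks protease activity, were lower in all 3 pairs.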

How the data were processed

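Libraries of poly(A)-selected RNA from 3 WT and 3 G3C2 samples had been turned by the authors into FPKM values, per the file headers. HISAT2, CASAVA and GRCh38.p12 are named in the submitters' processing notes. The counter and its strand setting are not given in the sources used here. Replicate 1 is held in one table, called the first, and b and c in another, each on its own scale. In the second, 97.3% to 97.4% of the FPKM values that the authors deposited gave whole reads (tolerance 0.02), and in the first 34.0% to 35.5%.

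Values were tested as log2(FPKM + 1) with limma 3.58.1 in R 4.3.3, with terms for genotype and table and with the variance trend on; p-values were adjusted by Benjamini-Hochberg over 15001 genes (at least 1 FPKM in at least 2 libraries). This leaves 3 residual degrees of freedom. The comparison of G3C2 with WT was tested on simulated data over 15001 genes: recovery was 12 of 50 genes at a fold of 2, 37 of 50 at 4, and 49 of 50 at both 8 and 16, and 6 calls were false.

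Members and lists were chosen with earlier results of these data known. Values in every library are given for members with an unadjusted p under 0.05, those in 1 direction in all 3 pairs with a log2 fold change of at least 0.5 in size, and the 5 most abundant in the second table; further members were added where a result turned on them. Of the wider list, the rule takes up to 8 genes in 1 direction with the largest differences; 1 gene of that list is not reported here. The labels of replicates are shared between genotypes: same-label libraries deviated together over all 6 libraries (r = 0.93, 0.80 and 0.60), which the tables' scales enter, but not within the second table (r = -0.17). Alternatives were another pseudocount, other filters, a replicate block, a fit without the table term, a fit to the second table, equal medians, quantile normalization, no trend, limma-voom on recovered reads (library sizes being the divisors of the FPKM), the second table scaled to its recovered reads (added after the values were seen), and leaving out libraries.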

Additional observations from a re-analysis of the deposited data

How the results depend on the processing

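None of the 30 tested members passed the adjusted threshold in any of the settings that keep all 6 libraries. None passed in the second table alone or by limma-voom either, which use replicates b and c only. Over all 20 settings 17 members kept their direction and 13 were reversed in at least 1, with 67 of 592 recomputed values reversed and 8 newly past the threshold. The settings are not independent checks. The second table alone gave the same log2 fold changes as the fits without WT replicate 1, without G3C2 replicate 1 and without replicate 1. Reversals in these fits are therefore counted repeatedly. The cause of these changes was not tested. Among all genes, 3 were called higher and 4 lower. The number higher was 0 without a filter on low values, without the table term, in the second table alone, by limma-voom and with the replicate block, and 5 with equal medians. The number lower was 0 without the filter, without the table term and in the second table alone, and 1 under a minimum mean FPKM of 5 or with the replicate block. Genes at an unadjusted p under 0.05 by limma numbered 2990 without the filter, 223 without the table term, 1110 in the second table alone, 1154 by limma-voom and 1782 with the block. With the replicate block 0 members were called, and 7 of 30 had an unadjusted p under 0.05, beside 1782 of 15001 genes.

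Leaving out libraries gave 0 to 448 genes higher, 0 to 457 lower, 0 to 5 members higher and 0 to 2 members lower. The highest values were without replicate c. The log2 fold change of MMP3 was 0.20 with a pseudocount of 0.1. In the second table alone it was -0.44 for MMP2, 1.27 for MMP3, -0.11 for MMP14, -0.28 for MMP15, 0.032 for MMP16, -0.13 for PLAU and -0.28 for HTRA1. By limma-voom it was -0.46 for MMP2, 2.09 for MMP3, -0.11 for MMP14, -0.29 for MMP15, 0.0355 for MMP16, -0.14 for PLAU and -0.30 for HTRA1. Equal medians gave 0.024 for MMP16 and 0.024 for ADAM9. Scaling the second table to its recovered reads, chosen after seeing the data, gave 1 gene higher and log2 fold changes of -0.072 for MMP2, -0.091 for ADAMTS1, -0.071 for PLAU and -0.034 for HTRA1. Quantile normalization gave -0.15 for MMP2, -0.0625 for MMP14, -0.14 for TIMP1 and -0.076 for PLAU.

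Leaving out libraries moved MMP2 between -0.44 and 0.83, MMP3 between -1.36 and 1.27, MMP14 between -0.11 and 0.56, and MMP15 between -0.28 and 0.67. MMP16 lay between -0.12 and 0.088, MMP17 between -0.47 and 0.10, ADAM9 between -0.12 and 0.14, and ADAM17 between -0.24 and 0.0095. ADAM19 lay between -0.14 and 0.0285, ADAMTS1 between -0.33 and 0.33, PLAU between -0.16 and 0.36, HTRA1 between -0.28 and 0.44, and TIMP1 between 0.00 and 0.38. PLAUR lay between 0.69 and 1.23 over all settings, with limma adjusted p-values from 0.0177 to 1. With 3 libraries a genotype, fold changes of 2 were mostly missed on simulated data, so members without a call may still differ by that much.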
